A study of Arabidopsis thaliana with 4 samples.

Results

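The transcripts described here responded more strongly to wounding of distant leaves in opr3 than in wild type (wt) Arabidopsis thaliana. They are 139 probe sets of the 22746 plant probe sets on the Affymetrix ATH1 array, on which a probe set is a group of short oligonucleotides that reads 1 transcript or a few similar ones. Members were chosen from the measured values of all 4 arrays. A probe set had to reach a log2 expression value of 4.73 on at least 1 array, be at least 2-fold higher in wounded opr3 than in opr3 control, and have a response at least 2-fold larger in opr3 than in wt (each a log2 difference of at least 1). Of 14599 probe sets that reached the level, 152 met both fold conditions (1.04%). From these, 13 were left out by gene name, namely 11 genes listed by symbol, a cytochrome P450 gene and a probe set of glycosyltransferase genes. Every comparison among the 4 arrays was used by the rule in some part, so all values below describe the members and none was tested.

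The study used 1 array for each of 4 groups: unwounded wt, wounded wt, unwounded opr3 and wounded opr3. Plants were 6 weeks old, kept at 21 °C under 10 h days and 14 h nights. In wounded plants some rosette leaves were clamped with tweezers across the midvein, and RNA was taken 2 h later from leaves that had not been clamped, so the arrays show a systemic response. The treatment text of the wounded opr3 sample names wt plants, and its line was taken from its title. The sources used here do not give the accession of either line, the opr3 allele or the number of plants per sample. No array has a replicate, so no spread between plants is known and no p-value or standard error can be given.

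OPR3 is the peroxisomal reductase that turns 12-oxophytodienoic acid (OPDA) into the precursor of jasmonic acid, the main wound hormone of leaves. A plant that lacks it is poor in jasmonate but can still make OPDA, a reactive molecule that is known to switch on some wound and detoxification genes on its own. Jasmonate and salicylate signalling are also known to restrain one another in Arabidopsis leaves. These statements are background and were not examined here. OPR3 itself is not analysed here, since no probe set bears its name in the platform annotation.

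The array values are log2 values on a common scale, with array medians between 5.36 and 5.42. Pearson's r for 2 arrays ranged from 0.965 to 0.993 across plant probe sets, which are not independent replicates. Of the leaf markers named on the array, RCA, LHCB4.1 and PRK lay between log2 12.21 and 13.57 on every array, while the root marker PYK10 and the pollen marker AGL66 stayed under the level of 4.73 on all 4 arrays. The guard cell marker GC1 was at log2 9.10 in wt control, 8.78 in wounded wt, 8.96 in opr3 control and 8.28 in wounded opr3. Over 8 pairs of probe sets for added bacterial control RNA, the 5' end was under the 3' end by a mean log2 difference of -2.00 in wounded wt and by -1.16 to -1.29 on the other 3 arrays. The wounded wt array enters the difference of responses of every member, and the part of this in the results was not tested. With bulk leaf RNA, fewer cells of a type and less RNA per cell cannot be told apart.

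In 119 of 139 members (85.6%) unwounded opr3 held the lowest and wounded opr3 the highest of the 4 values, against 12.1% of all 14599 probe sets, an order that the rule favours. Over the 139 members the median response was a log2 difference of 1.66 (3.16-fold) in opr3 and 0.13 (1.10-fold) in wt, against -0.03 and -0.05 over all probe sets. The median difference of responses was 1.47, with a range from 1.002 to 4.58. Past 2-fold in wounded opr3 lay 4.85% of all probe sets, and 2.07% had a response at least 2-fold larger in opr3, and since the rule asked for both, nothing is read from the members here. In wounded opr3, 53 members (38.1%) were at least 4-fold above opr3 control, a log2 difference of at least 2, against 1.04% of all.

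**Figure D1:**
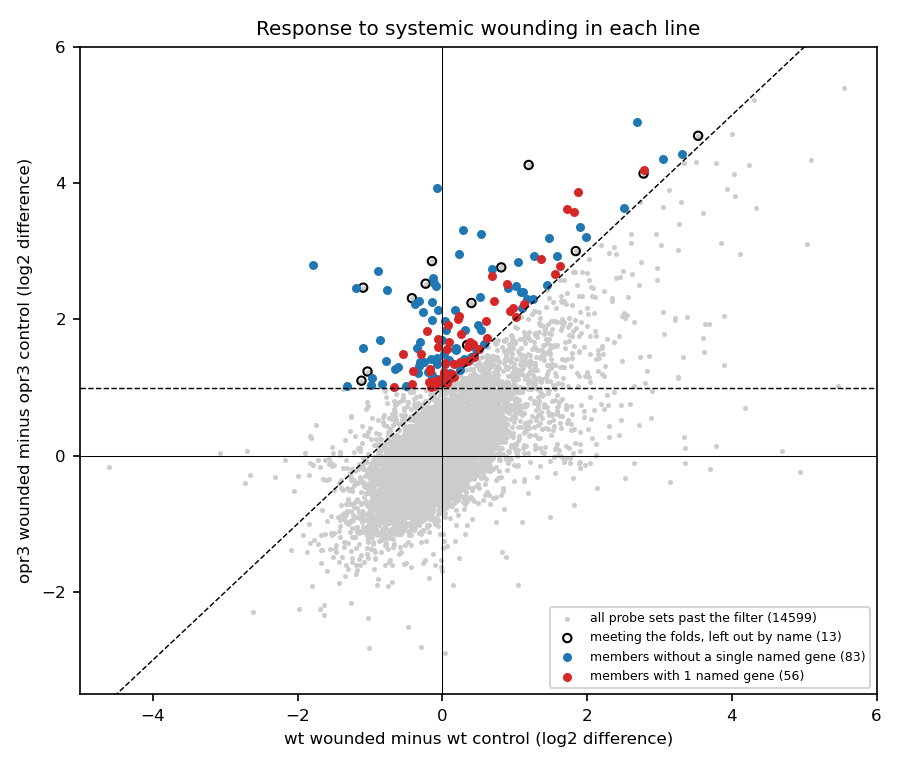
Log2 difference between wounded and control plants in wt (horizontal axis) and opr3 (vertical axis) for all 14599 probe sets past the filter (grey), the 13 left out by name (open circles), the 56 members with 1 named gene (red) and the other 83 members (blue). Dashed lines are the 2 fold limits of the rule, and 109 of the 139 members lie within 1 of 0 on the wt axis, as do 94.3% of all probe sets.

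The wt response was smaller than 2-fold either way in 109 members (78.4%), a lower share than the 94.3% over all probe sets. In the others, 26 members (18.7%) had a wt response of 2-fold or more upward, against 3.95% of all probe sets, and 4 (2.88%) were at least 2-fold lower, against 1.79%. The rule tied the opr3 response to at least 1 above the wt response, so these shares are partly fixed by it. Members just inside the limit on the difference of responses were AT1G17500 at 1.002, AT1G26380 at 1.006 and AT4G23470 at 1.02. Just outside were 2 probe sets without a name at 0.997 and 0.994 and AT1G57630 at 0.992. On the opr3 response, cwINV6 at 1.002 and AT5G45000 at 1.005 lay just inside, and AT4G31790 at 0.994 just outside. On the filter, AT3G48640 with a highest value of log2 5.08 was the nearest member inside and AT1G26390 with 4.67 the nearest probe set outside.

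The difference of responses is the sum of 2 parts, the deficit of opr3 against wt before wounding and its excess after wounding. Before wounding, 133 of 139 members (95.7%) were lower in opr3 than in wt by any amount, against 58.8% of all probe sets, with a median log2 difference of -0.53, and 25 members (18.0%) were at least 2-fold lower, against 0.575% of all probe sets. After wounding, 135 of 139 (97.1%) were higher in opr3, against 50.5% of all, with a median of 0.99, and 69 members (49.6%) were at least 2-fold higher, against 1.34% of all. The excess after wounding was the larger part in 107 members (77.0%), against 46.9% of all probe sets, and the deficit before wounding in 32 (23.0%), against 53.1%. Both parts reached 2-fold in 14 members (0.130% of all probe sets) and the excess alone in 55 (1.21% of all). The deficit alone did so in 11 (0.445% of all), and neither part in 59 (98.2% of all), in which 2 smaller differences add up. The opr3 control array enters both fold conditions with a negative sign and the wounded opr3 array with a positive one, so low values on the first and high values on the second are favoured by the rule.

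Counted by rank, wounded opr3 held the highest of the 4 values in 134 members (96.4%), against 24.5% of all probe sets, and opr3 control the lowest in 124 (89.2%), against 28.5%. In 45 members (32.4%) wounded opr3 stood at least 2-fold above each of the other 3 arrays, against 0.363% of all. In 79 members (56.8%) it was at least 2-fold above wt control, against 3.35% of all. The rule used all of these arrays, so nothing is read from these counts. The 13 probe sets left out by name leaned more to a deficit in controls, with a median of -1.22 before wounding and 1.23 after it. No test of that contrast was possible.

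**Figure D2:**
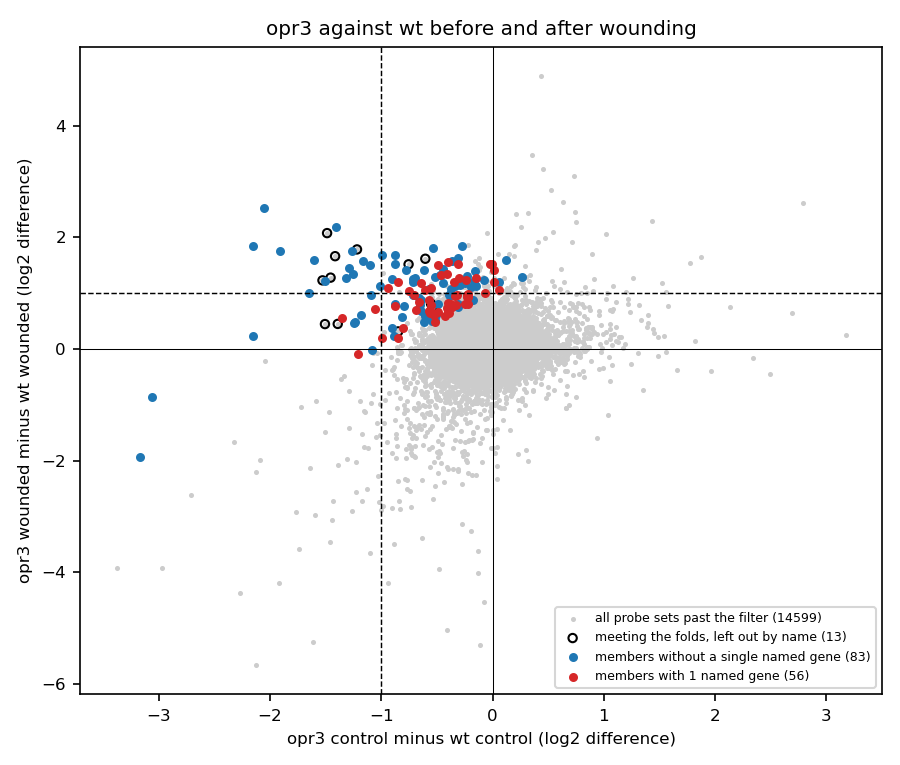
Log2 difference of opr3 minus wt in control plants (horizontal axis) and after wounding (vertical axis), with the same symbols as in the plot of the wound responses. Dashed lines mark 2-fold lower before wounding and 2-fold higher after it, and most members lie to the upper left of the origin, with 14 past both lines.

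Of the 139 members, the platform annotation paired 56 with 1 gene and 3 with 2 genes, and it did not list 80, which are therefore unnamed here. The unlisted members held 25 of the 27 with a difference of responses of at least 2 (4-fold), against 0.301% of all probe sets. Unlisted probe sets made up 43.4% of all past the filter. Only probe sets with a gene name could be left out by name, and 7 of those 13 had a difference of at least 2. The 56 named members had smaller differences (median 1.27, range 1.002 to 2.04) than the 80 unlisted ones (median 1.63, range 1.03 to 4.58). The named genes thus show the weaker side of the set, in part because of the removal by name. A value under 4.73 is near background, where this kind of value draws low levels together. All 4 values were at or above that level in 103 members (74.1%), 35 of them named, against 87.0% of all probe sets. In opr3 control 36 members (25.9%) were under it, against 5.86% of all, and the rule favours low values on that array. Folds for genes with such values are given with the word about.

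Receptors and protein kinases take up and pass on signals, many at the cell surface and some, such as TIR-class resistance proteins, inside the cell. They gave 5 named members. AT1G66880, a protein kinase gene, had the largest difference of responses of all named members at 2.04 (4.12-fold). It was at log2 7.04 in wt control, 6.50 in wounded wt, 6.19 in opr3 control and 7.69 in wounded opr3. It was thus lower after wounding in wt, by a log2 difference of -0.54, and higher after wounding in opr3, by 1.498.

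GLR2.7 encodes a glutamate receptor-like channel, a family known for long-distance wound signalling through other members. It was at log2 6.80 in wt control and 7.15 in wounded wt, and at 6.23 in opr3 control and 7.84 in wounded opr3. Its response was 3.04-fold in opr3 and 1.28-fold in wt. SD1-29, an S-domain receptor kinase that senses bacterial hydroxy fatty acids, was at log2 4.85 in wt control, 5.86 in wounded wt, 4.63 in opr3 control and 6.67 in wounded opr3. It was higher after wounding in both lines, by about 4.11-fold in opr3 and 2.02-fold in wt.

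AT1G51890, a leucine-rich repeat receptor kinase gene, was at log2 4.52 in wt control, 4.83 in wounded wt, 4.45 in opr3 control and 5.83 in wounded opr3. The control values of both lines lay close together, but both were under 4.73, where low levels are drawn together. How its difference divides between before and after wounding therefore cannot be read. AT5G45000, of the TIR class of disease resistance genes, was under 4.73 on 3 arrays (4.41, 4.25 and 4.18) and at 5.18 in wounded opr3.

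Among signalling genes, AT4G28140, an AP2/ERF family transcription factor gene, was the only one of 5 also at least 2-fold higher in wounded wt (3.95% of all probe sets). It was at log2 5.20 in wt control, 7.01 in wounded wt, 4.14 in opr3 control and 7.72 in wounded opr3. The response was about 11.96-fold in opr3 and 3.53-fold in wt, and much of the gap lay in the controls, where opr3 was about 2.07-fold lower.

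AT1G10340, an ankyrin repeat gene, was at log2 7.56 in wt control, 7.50 in wounded wt, 7.14 in opr3 control and 8.85 in wounded opr3. Wounded opr3 stood 2.55-fold above wounded wt, while the wt values differed by only 1.04-fold. SAL2 belongs to the bisphosphate nucleotidase family. It was at log2 5.15 in wt control, 4.85 in wounded wt, 4.40 in opr3 control and 5.89 in wounded opr3. Its opr3 minus wt difference was -0.75 before wounding and 1.04 after it. The opr3 control value was under 4.73, so the size of the deficit is uncertain. With low values raised to that level, its difference of responses was 1.46 in place of 1.79.

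AT1G34750, a protein phosphatase 2C gene, was at log2 7.15 in wt control, 6.98 in wounded wt, 6.58 in opr3 control and 7.86 in wounded opr3. AT3G47480, an EF-hand calcium-binding protein gene, was at 5.99, 6.14, 5.43 and 6.78 in the same order. For both genes neither part alone reached 2-fold, and the difference of responses (1.45 and 1.19) was the sum of a lower control and a higher wounded value in opr3.

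Chaperones and other protein folding genes gave 4 named members, 3 of them of the HSP70 system. HSP70 proteins hold unfolded proteins, Fes1A helps to exchange their nucleotide and protects HSP70, and AT5G48570 encodes ROF2, a heat-inducible peptidyl-prolyl isomerase. Hsp70-2 was at log2 7.03 in wt control, 7.92 in wounded wt, 6.47 in opr3 control and 9.00 in wounded opr3. Its response was 5.76-fold in opr3 and 1.85-fold in wt.

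AT3G09440, a further HSP70 gene, was at log2 9.25 in wt control, 10.88 in wounded wt, 8.45 in opr3 control and 11.24 in wounded opr3. After wounding the lines were within 1.29-fold of one another, and its larger response in opr3 (6.92-fold against 3.08-fold) rested mainly on a control value 1.74-fold lower than in wt. Hsp70-2 and AT3G09440 are close paralogs, and their probe sets may share signal.

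Fes1A was at log2 5.81 in wt control, 6.52 in wounded wt, 5.46 in opr3 control and 7.72 in wounded opr3, which is 2.29-fold above wounded wt. AT5G48570 was at 4.93, 5.01, 4.62 and 6.54 in that order, a response of about 3.78-fold in opr3 and 1.06-fold in wt. Of 17 genes written in the heat shock list, 4 were named and 2 passed the filter, AT5G48570 and HOP3, a HSP70-HSP90 organising co-chaperone. HOP3 was at log2 4.34, 4.64, 4.13 and 5.23, with a difference of responses of 0.81. The small heat shock protein genes HSP22 and HSP17.6C stayed under 4.73 on all 4 arrays.

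In a family list drawn up after the values were seen, 5 of 11 HSP70 genes and exchange factors were named and passed the filter, 3 of them members. The remaining 2 were AT3G53800 and AT5G02150, Fes1 relatives, with differences of responses of -0.27 and -0.24. AT5G02150 was higher in both opr3 arrays (8.84 and 8.43) than in both wt arrays (7.07 and 6.89). Among the endoplasmic reticulum folding genes, none of 3 measured out of 15 written was past 2-fold in either line's response or in the difference. ERDJ3B came nearest at 0.95, with a response of 0.94 in opr3 and -0.01 in wt, and CRT2 and BZIP60 were at 0.32 and -0.03.

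Protein degradation was represented by 8 named members. None was at least 2-fold higher in wounded wt, but only 3.95% of all probe sets were, so nothing is read from this. RING1, a plasma membrane ubiquitin ligase linked to programmed cell death, was at log2 9.35 in wt control, 9.41 in wounded wt, 8.69 in opr3 control and 10.25 in wounded opr3. Its response was 2.95-fold in opr3 against 1.05-fold in wt. AT1G08050, a RING finger gene, was at 5.05, 5.47, 4.83 and 6.46 in the same order, and AT5G67340, with a U-box and armadillo repeats, at 5.08, 5.09, 4.68 and 5.91.

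Secreted or membrane proteases formed the other side of this group. AT2G39710, an aspartyl protease gene, was at log2 5.62 in wt control, 5.72 in wounded wt, 5.32 in opr3 control and 6.99 in wounded opr3. It was the only one of the 8 in which wounded opr3 exceeded wounded wt by 2-fold (2.41-fold), against 1.34% of all probe sets. AT3G51330, of the same family, was at 5.56, 5.15, 4.68 and 5.92, with a larger part of its difference in the controls. AT3G61820, also of this family, was at 8.19, 8.54, 7.95 and 9.34. The subtilase gene SBT3.5 was at 5.99, 6.59, 5.30 and 7.28, with the deficit before wounding (-0.68) and the excess after it (0.70) nearly equal.

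AT2G38870 encodes a protease inhibitor of the potato inhibitor I family, a class of wound-induced defence protein. It was at log2 7.9998 in wt control, 8.93 in wounded wt, 7.01 in opr3 control and 9.13 in wounded opr3. After wounding the lines were within 1.15-fold of one another, and the larger response in opr3 (4.34-fold against 1.90-fold) lay in a control value 1.99-fold under that of wt.

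**Figure D3:**
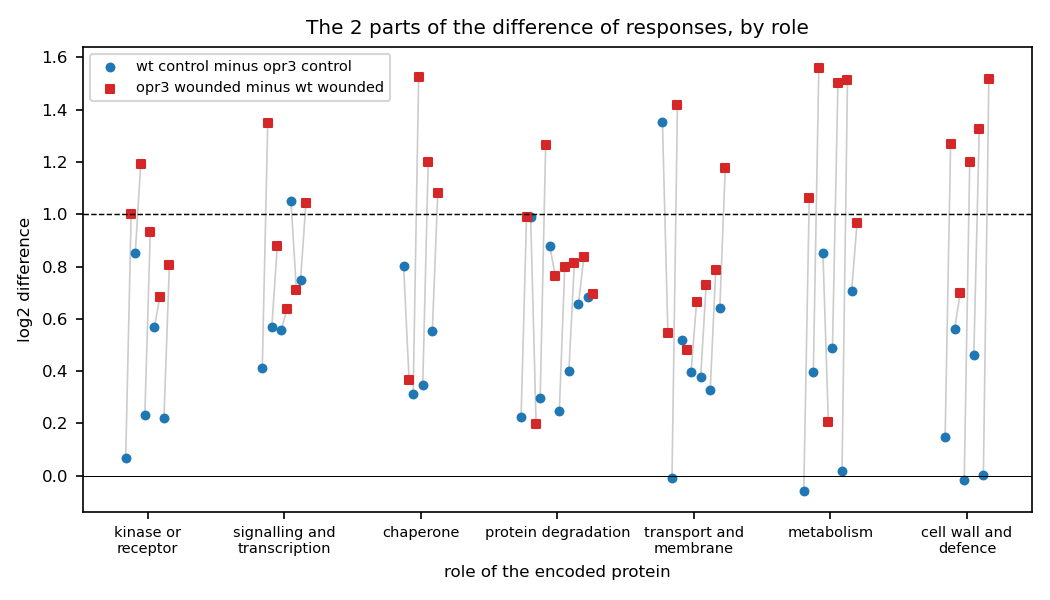
The 2 parts of the difference of responses for the 40 named members given a role: the deficit of opr3 before wounding (blue circles, wt control minus opr3 control) and its excess after wounding (red squares, opr3 wounded minus wt wounded), as log2 differences, with a line joining both parts of a gene. The dashed line is 2-fold, passed by the excess in 18 genes (1.34% of all probe sets) and by the deficit in 2 (0.575% of all).

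Membrane and transport genes included 3 of the cysteine-rich transmembrane module family, short membrane proteins linked to stress tolerance. AT1G05340 was at log2 5.76 in wt control, 7.48 in wounded wt, 4.41 in opr3 control and 8.03 in wounded opr3. Its opr3 control value was about 2.56-fold under wt control, the largest deficit among named members, and its response was about 12.3-fold in opr3 and 3.30-fold in wt. AT2G32190 was at 4.01, 5.56, 3.68 and 6.35 in the same order, with both controls near background.

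AT1G56060, the remaining one of the 3, was at log2 5.24, 5.75, 4.84 and 6.42 in that order. In a list of 11 genes of this family drawn up after the values were seen, 6 had a named probe set past the filter, and 3 of these were members. AT3G22240, AT5G04080 and AT3G57160 were within 1.5-fold in each line's response.

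AT2G39210, a major facilitator superfamily transporter gene, was at log2 8.44 in wt control, 8.67 in wounded wt, 7.80 in opr3 control and 9.85 in wounded opr3. Its response was 4.14-fold in opr3 and 1.17-fold in wt, with wounded opr3 above every other array by at least 2-fold. AT1G62790, of the lipid-transfer family, was at 5.64, 6.77, 5.26 and 7.50 in the same order and was higher after wounding in both lines. AT1G17500, a P-type ATPase of the phospholipid-transporting type, lay at the edge of the rule with values of 6.27, 6.43, 5.75 and 6.91.

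AT1G10090, of the ERD4-like membrane proteins, gave different results with its 2 probe sets. The member probe set was at log2 7.58 in wt control, 7.41 in wounded wt, 7.59 in opr3 control and 8.83 in wounded opr3, a difference of responses of 1.41. The other probe set was at 7.96, 9.40, 8.03 and 9.37, with responses of 1.44 in wt and 1.34 in opr3 and a difference of -0.10. By that second reading the gene was higher after wounding in both lines alike. AT3G60420, a phosphoglycerate mutase family gene, also had a second probe set, but it lay under 4.73 on all 4 arrays. No other named member had a second probe set named in the platform annotation, which does not list every probe set.

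Metabolic enzymes gave 6 named members. AT5G55050, a GDSL lipase family gene, was at log2 6.37 in wt control, 8.24 in wounded wt, 5.88 in opr3 control and 9.74 in wounded opr3. The response was 14.6-fold in opr3 and 3.67-fold in wt, and wounded opr3 stood 2.83-fold above wounded wt. AT5G12420, of the wax ester synthase family, was at 4.86, 5.55, 4.47 and 7.11 in the same order, about 6.24-fold in opr3 and 1.61-fold in wt. Its excess over wounded wt (2.95-fold) was the largest among named members.

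CCOAMT, a caffeoyl-CoA methyltransferase of the phenylpropanoid pathway, was under the level on 3 arrays (4.08, 4.33 and 4.06) and at log2 5.85 in wounded opr3. cwINV6, a fructan exohydrolase despite its name as a cell wall invertase, was at 5.28 in wt control, 4.61 in wounded wt, 4.57 in opr3 control and 5.57 in wounded opr3. It was thus lower after wounding in wt and higher in opr3, and both wt control and wounded opr3 held similar values. DFR, the only measured gene of 15 written in the phenylpropanoid and flavonoid list, had a difference of responses of -0.30. Its values of log2 4.59 in wt control, 4.70 in wounded wt, 4.79 in opr3 control and 4.60 in wounded opr3 were near background, so nothing is read from this.

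AT5G44400 and AT1G26380 belong to the berberine bridge enzyme family of flavin-dependent oxidases, and AT1G26380 is known for the synthesis of a cyanogenic indole defence compound. AT5G44400 was at log2 6.32 in wt control, 6.46 in wounded wt, 5.47 in opr3 control and 6.66 in wounded opr3, so its difference lay almost wholly in the controls. AT1G26380 was at 4.20, 4.27 and 4.26 on the first 3 arrays and 5.33 in wounded opr3. The first 3 values are under 4.73, so a deficit in the controls could not be read.

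In a list of 27 of its genes drawn up after the values were seen, 10 were named and passed the filter, and the median difference of responses was -0.21. Near AT1G26380 in gene order, AT1G26390 had a difference of responses of 1.12 but reached only log2 4.67, just under the filter, and AT1G26420 had 1.18 with an opr3 response of 0.96, just under the fold limit. AT1G26400 and AT1G26410 stayed near background on every array. AT2G34810 went the other way, at log2 5.92 in wt control, 8.23 in wounded wt, 5.09 in opr3 control and 5.37 in wounded opr3.

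Cell wall and defence genes made up 5 named members. Of these, 4 were at least 2-fold higher in wounded opr3 than in wounded wt, against 1.34% of all probe sets, an excess that the rule favours. AT1G14780, which encodes a protein with a membrane attack complex and perforin domain, had the largest response of any named member. It was at log2 4.86 in wt control, 7.64 in wounded wt, 4.71 in opr3 control and 8.91 in wounded opr3. The response was about 18.4-fold in opr3 and 6.88-fold in wt. The controls lay close together, but that of opr3 was under 4.73 and that of wt little above it. Low levels are drawn together there, so a deficit in the controls could not be read.

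AT5G64120, a class III peroxidase gene, was at log2 4.97 in both controls, 6.34 in wounded wt and 7.85 in wounded opr3. The response was 7.40-fold in opr3 and 2.58-fold in wt, and the whole difference arose after wounding. AT4G01700, a chitinase family gene, had the same outline at 5.20 in wt control, 6.19 in wounded wt, 5.22 in opr3 control and 7.39 in wounded opr3.

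AT5G18470, a mannose-binding lectin family gene, was at log2 4.9995 in wt control, 5.21 in wounded wt, 4.54 in opr3 control and 6.54 in wounded opr3. AT1G14890, a pectin methylesterase inhibitor-like gene, was at 7.48, 7.85, 6.91 and 8.55 in the same order. Neither was as much as 1.5-fold higher in wounded wt.

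The remaining 16 named members have no role stated here, apart from the phosphoglycerate mutase family of AT3G60420. AT2G24160, annotated as a transcribed pseudogene, was second among all named members in its difference of responses at 2.04, with log2 values of 6.06 in wt control, 5.85 in wounded wt, 5.12 in opr3 control and 6.95 in wounded opr3. AT5G19875 was at 5.89, 5.82, 5.28 and 6.87 in the same order, and AT3G18250 at 5.22, 4.80, 4.98 and 6.03. The others, AT1G21520, AT4G32870, AT5G17760, AT3G03020, AT1G65690, AT4G25070, AT1G13340, AT5G46230, AT3G48640, AT3G60420, AT4G23540 and AT4G23470, had differences of responses of 1.02 to 1.34. Of these, AT3G48640, AT5G17760, AT5G46230, AT1G65690 and AT4G25070 were under 4.73 on 3 arrays and reached it only in wounded opr3, and their differences were 0.35 to 0.63 when low values were raised to that level. AT1G23850 was the only named member whose highest value was in wounded wt, at log2 8.26 against 8.17 in wounded opr3, with 7.64 in wt control and 6.44 in opr3 control.

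**Figure D4:**
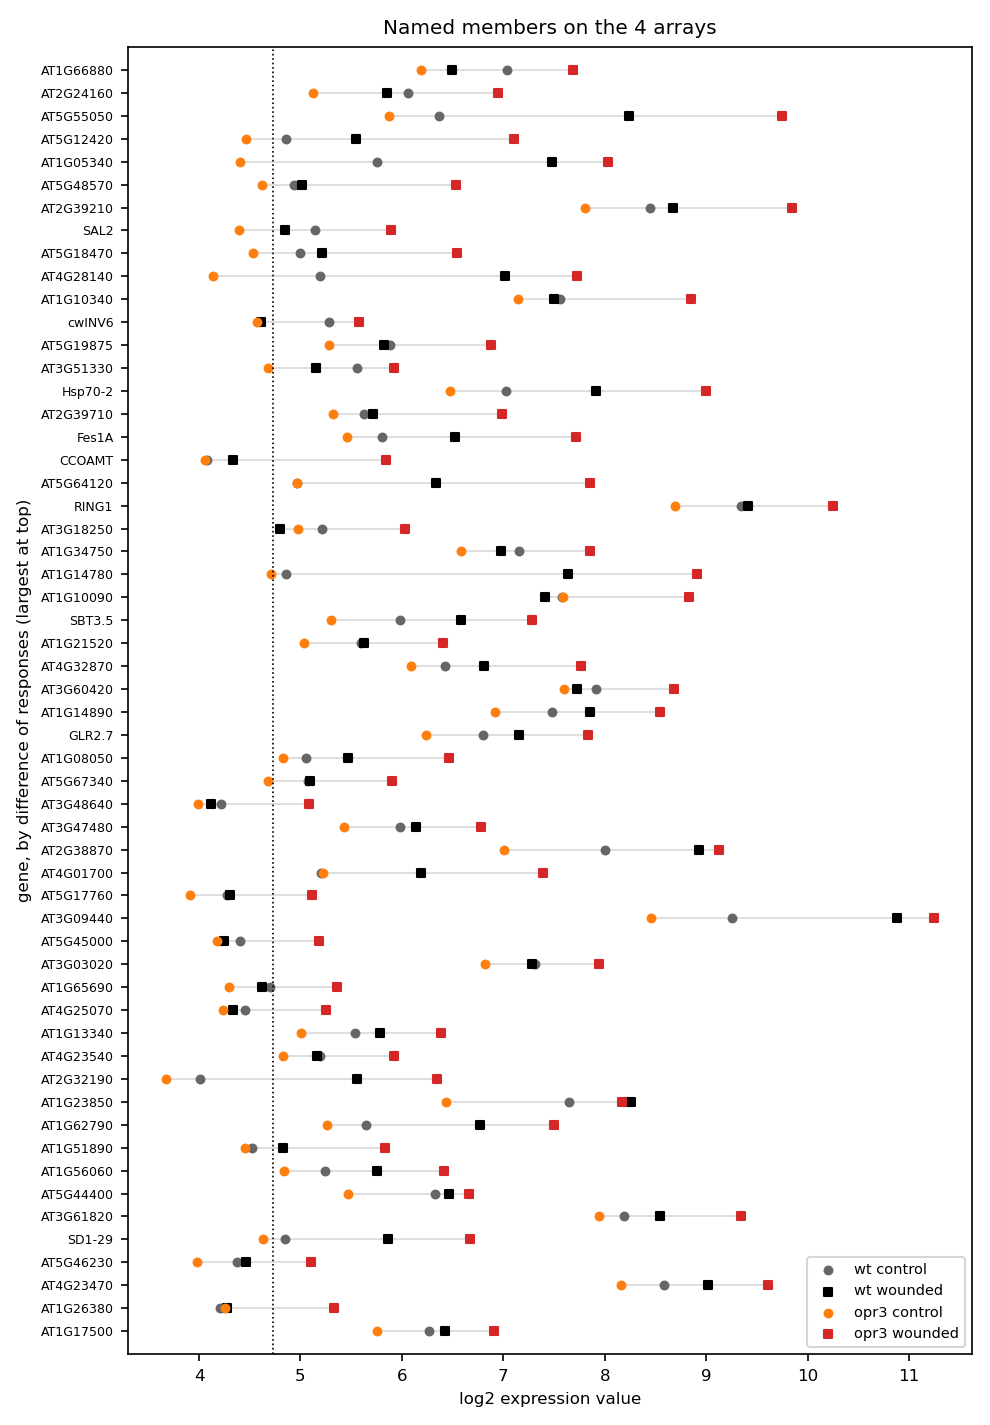
Log2 expression value of the 56 named members on each of the 4 arrays, 1 gene per line, ordered by the difference of responses. The dotted line is the filter level of 4.73. Wounded opr3 (red squares) is the highest value in 55 of 56 genes (24.5% of all probe sets). The opr3 control (orange circles) is the lowest in 52 (28.5% of all), and the rule favours both.

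The named members can be divided by the wt response at 2-fold, a cut that is not part of the rule. In 9 genes wounded wt was also at least 2-fold higher than wt control (3.95% of all probe sets), and opr3 went further: AT1G14780, AT5G55050, AT4G28140, AT1G05340, AT3G09440, AT2G32190, AT5G64120, AT1G62790 and SD1-29. In the other 47 the wt response was under 2-fold either way (94.3% of all), while the rule placed opr3 past the limit in every member. Some of these lay just under the cut, with a wt response of 0.98 in AT4G01700 and 0.93 in AT2G38870. Among all named members, wounded opr3 exceeded every other array by at least 2-fold in 16 (0.363% of all), which the rule favours.

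The named members lay on all 5 chromosomes, with 20 on chromosome 1, 6 on chromosome 2, 9 on chromosome 3, 6 on chromosome 4 and 15 on chromosome 5. Pairs close in gene order were Fes1A and AT3G09440 as well as AT4G23470 and AT4G23540, each with 8 genes between, and AT1G14780 and AT1G14890 with 10. Their genomic length had a median of 2091 bp, against 2318.5 bp over the 7938 matched genes past the filter.

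The unlisted members can be described by their values only. The probe set 265837_at had the largest difference of responses in the set at 4.58 (log2), at 8.91 in wt control, 7.12 in wounded wt, 6.85 in opr3 control and 9.65 in wounded opr3. It was lower after wounding in wt and higher in opr3. The probe set 254975_at followed at 4.01, with 6.79, 6.72, 4.64 and 8.58 in the same order. Of the 80, 46 were at least 2-fold higher in opr3 after wounding (1.34% of all probe sets), 21 at least 2-fold lower in opr3 controls (0.575% of all), and 16 had a wt response of at least 2-fold upward (3.95% of all).

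A few members were lower in opr3 than in wt on both occasions. The probe set 259640_at was at log2 10.71 in wt control, 12.70 in wounded wt, 7.54 in opr3 control and 10.76 in wounded opr3, and it was the only member at least 2-fold lower in opr3 after wounding, against 1.66% of all probe sets. The probe set 263539_at was at 7.62, 10.31, 4.56 and 9.46 in the same order. In both, opr3 started far lower and its wounded value stayed under that of wounded wt, so a larger response does not mean a higher level. A member paired with 2 genes, 246481_s_at, had log2 values of 12.14, 13.24, 11.05 and 13.23, equal in both lines after wounding within a log2 difference of -0.02.

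The pathway lists written for this study had few named genes. Of the abscisic acid and cold list, 4 of 22 genes were measured, all 4 at least 2-fold higher after wounding in both lines. Of these, COR15A and LTI30 met both fold conditions but are among the genes left out by name, while COR15B (0.85) and COR47 (0.23) missed the limit on the difference of responses. SAG101, the lipase-like partner of EDS1 and the only measured gene of 25 in the salicylate list, was at log2 5.87 in wt control, 5.75 in wounded wt, 5.87 in opr3 control and 6.36 in wounded opr3.

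The electrophile and glutathione list had 2 measured genes of 28. AER, an alkenal reductase, was higher after wounding in both lines, by 1.48 in wt and 1.72 in opr3, and GR1, a glutathione reductase, had a difference of responses of 0.29. In the jasmonate list, with 2 measured of 20, THI2.1 and OPCL1 had negative differences of responses (-1.09 and -0.62). The rule fixes a positive sign for the members, so nothing is read from the contrast with them. THI2.1 was at log2 4.42 in wt control, 5.19 in wounded wt, 4.48 in opr3 control and 4.15 in wounded opr3. Only its wounded wt value reached the filter level of 4.73, so the size of its difference is uncertain. OPCL1 was at 7.57, 8.86, 7.30 and 7.97 in the same order. MCCA and IVD were the 2 measured of 14 senescence and starvation genes, both enzymes of leucine breakdown. Their differences of responses were -0.50 and 0.13. None of these lists allows a statement on its pathway as a whole.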

How the data were processed

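Leaf RNA (10 ug of total RNA per sample, per the labels' protocols) from 4 plant groups was measured on 4 ATH1 arrays. The authors deposited 1 log2 value per probe set and array, made with RMA and Partek, per the submitters' processing notes. RMA corrects background, normalizes quantiles and summarises probes. No version, probe annotation or genome build was given in the sources used here, and raw intensities were not analysed here. Low RMA values are compressed, which tends to understate the folds of weak transcripts. The members were chosen by large differences between single arrays, so the direction of any error in their folds was not determined.

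Differences between single arrays were computed with pandas 2.3.3 and numpy 2.4.6 from the deposited log2 values. The filter level was the 40th percentile of all values, 4.73. Since there is 1 array per group, no test was run, and the number of arrays limits precision. Gene names came from the platform annotation, updated through gene identifiers in the TAIR10.1 gene table. All 56 named members matched it. No coordinates are printed. Roles are textbook knowledge.

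Any member with 1 gene could be named. Values on all arrays were given for the 25 named members with the largest difference of responses. They were also given for all 40 named members with a role, beyond the 5 per role group first planned. Both probe sets of AT1G10090, some genes of the lists and a few members without a single named gene were added. Some further members are named as edge cases. The members and lists were chosen with earlier results of these data known. The rule was run on simulated data only to check the code. The noise there was set by hand, and values near the filter level or the fold limit were not simulated. 9 alternatives were tried.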

Additional observations from a re-analysis of the deposited data

Results flagged for a closer look

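In 4 members (2.88%), all without a listed gene, the lines moved in opposite directions by at least 2-fold each. The rule fixed the rise in opr3, so these are the members at least 2-fold lower in wounded wt, as were 1.79% of all probe sets. Of the 13 probe sets left out by name, 3 did the same, so the lack of listed genes depends in part on that removal. The difference between the lines was not tested, since each value rests on single arrays. The probe set 265837_at had a response of -1.78 (log2) in wt and 2.799 in opr3, a difference of 4.58. The probe set 266385_at had -1.20 in wt and 2.46 in opr3, a difference of 3.66. For 266070_at the responses were -1.10 and 1.59, a difference of 2.68. For 264147_at they were -1.32 and 1.02, a difference of 2.34.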

How the results depend on the processing

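Limits of 1.5-fold and 3-fold in place of 2-fold moved the size of the set. At 1.5-fold there were 545 members, 74 of them at least 2-fold higher in wounded wt, with a median difference of responses of 0.86 and a median of opr3 minus wt after wounding of 0.59. At 3-fold there were 41 members, 7 of them with a wt response of 2-fold or more, and 32 at least 2-fold higher in opr3 after wounding. Their medians were 2.05 for the difference of responses, -1.05 for opr3 minus wt in controls and 1.32 after wounding. These shifts follow from the limit itself. Under the other 7 alternatives (array medians, quantile normalization, cyclic loess, no filter, a filter at the 60th percentile, low values raised to the level, and no _s_at or _x_at probe sets) the number of members was 114 to 145, each count was within 1.5-fold and each median within 0.25. Of 56 named members, the filter at the 60th percentile kept 41, centring on array medians 43 and raising low values 46. Raising low values took the difference of responses under the limit in AT3G48640 (0.35), AT5G46230 (0.37), AT5G17760 (0.38), AT5G45000 (0.45), AT4G25070 (0.53), AT1G26380 (0.60), AT1G65690 (0.63), AT2G32190 (0.79) and SD1-29 (0.93), and the opr3 response of cwINV6. AT1G17500 was under the limit with each of the 3 rescalings (0.93 to 0.95). No named member changed direction. No paired analysis was possible because each group has 1 array.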
